A study of Mus musculus with 22 samples.

Results

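The acrosome is a Golgi-derived vesicle that caps the nucleus of the sperm head. Its enzymes and adhesion proteins act when sperm meet the coat of the egg, the zona pellucida. In the mouse testis it is built during the spermatid stages, after meiosis, whereas spermatogonia are the mitotic cells at the base of the tubule. The genes examined here were Acr, Acrv1, Spaca1, Zpbp, Zpbp2, Spam1, Zp3r, Izumo1 and Dpy19l2. Peaks of open chromatin were assigned to them when they overlapped the gene body or the 2 kb on either side of it in GRCm38 (mm10). This gave 25 of the 96049 peaks of the count matrix for the 9 genes: 8 at Zpbp, 6 at Zp3r, 3 at Dpy19l2, 2 each at Acr and Izumo1, and 1 each at Acrv1, Spaca1, Zpbp2 and Spam1.

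ATAC-seq, in which Tn5 transposase cuts accessible DNA, was carried out on FACS-purified testicular cells of C57BL/6 mice aged 8 to 12 weeks, in a series on acute deletion of TERT, the catalytic subunit of telomerase. TERT-deleted spermatogonia gave 3 libraries each of MCAM-high:KIT-, MCAM-Med:KIT- and MCAM-Med:KIT+ cells, collected 7 days after tamoxifen. TERT-heterozygous spermatogonia, the controls, gave 3, 2 and 3 libraries of the same populations, and also received tamoxifen. The labels call both KIT- populations undifferentiated and the KIT+ population differentiating. The genotype entry reads TertCreER/+:Rosalsl-Tdtomato/+ for deleted and control libraries alike, so the deletion rests on the sample titles. The floxed allele is not named there. A further 5 libraries came from later germ cells of genotype TertTdtomato/+, titled heterozygous and labelled spermatocyte or round spermatid, with no time after tamoxifen in their own entries. For 4 of these 5 the title and the library name give opposite cell types, and all 5 names carry the same source tag. They were therefore kept as 1 group, whose spread may be technical. Cell stage, genotype entry and source tag differ together between these libraries and the spermatogonia, and tamoxifen treatment may differ too. The parts of these in any difference between later cells and spermatogonia cannot be told apart. The labels do not say whether replicates of the other groups are separate animals either, and p-values refer to the spread among the libraries as deposited.

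Total counts in peaks were 922085 to 2657910 per spermatogonial library and 1433230 to 3358377 per later library. At this depth a count of 0 allows up to 0.893 to 3.25 CPM of the unscaled library total, taking 3 counts as the floor. All other CPM values are counts scaled by library total with TMM factors. The 1000 strongest peaks held 10.04 to 11.02% of counts in later libraries and 11.3 to 18.6% in spermatogonia. The only peak at Tert covers its annotated start and ranged from 12.5 to 21.1 CPM in deleted and from 13.5 to 30.0 CPM in control spermatogonia. Since the deleted part of the gene is not given in the sources used here, that peak does not check the genotype. Of 10 spermatid marker genes, 7 had a peak at their start, and their summed signal was 249 to 320 CPM in later libraries, against at most 38.0 CPM in any spermatogonial library. The sum of 6 meiotic markers with such a peak was 369 to 431 CPM in later libraries and 100 to 167 CPM in spermatogonia. The lists of somatic markers (Sertoli, Leydig, immune, peritubular) had a start peak at only 1 gene each, which held at most 15.3 CPM in later libraries and 49.4 CPM in spermatogonia, so somatic cells could not be assessed as lists. The part of these marker differences in the values of the acrosome genes was not tested.

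The genes were grouped into patterns after their values were seen. The promoters with the fewest and the most CpG are printed to show how they differ. RefSeq (GRCm38.p6) promoters of 300 bases, 250 before and 50 after the annotated start, were found for 8 of the 9 genes, all but Acr. CpG dinucleotides are in capitals, and sequences read 5′ to 3′ on the strand of the gene. The first 3 promoters belong to genes whose start peak was near 0 in every spermatogonial library. They encode a sperm hyaluronidase (Spam1), an acrosomal vesicle protein (Acrv1) and a zona-binding protein of the acrosomal matrix (Zp3r).
Spam1 (chr6:24790938-24791237, plus strand): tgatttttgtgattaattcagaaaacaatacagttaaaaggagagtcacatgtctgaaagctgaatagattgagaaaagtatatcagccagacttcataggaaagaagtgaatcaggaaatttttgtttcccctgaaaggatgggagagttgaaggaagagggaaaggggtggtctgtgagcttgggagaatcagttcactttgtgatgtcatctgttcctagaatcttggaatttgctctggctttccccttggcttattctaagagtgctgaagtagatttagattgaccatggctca
Acrv1 (chr9:36692970-36693269, plus strand): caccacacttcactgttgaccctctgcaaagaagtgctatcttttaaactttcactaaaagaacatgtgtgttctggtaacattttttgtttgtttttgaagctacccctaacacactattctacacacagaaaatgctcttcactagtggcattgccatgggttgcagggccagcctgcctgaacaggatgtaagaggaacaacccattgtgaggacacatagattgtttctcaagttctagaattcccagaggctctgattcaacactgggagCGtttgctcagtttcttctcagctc
Zp3r (chr1:130629557-130629856, minus strand): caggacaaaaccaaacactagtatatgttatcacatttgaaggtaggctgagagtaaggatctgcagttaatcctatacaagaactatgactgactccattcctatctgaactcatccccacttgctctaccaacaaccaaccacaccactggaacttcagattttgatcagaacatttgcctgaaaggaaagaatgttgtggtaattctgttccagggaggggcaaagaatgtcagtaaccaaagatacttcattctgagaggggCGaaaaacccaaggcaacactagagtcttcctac
The other 3 belong to genes whose start peak was already present in spermatogonia. Their products are an inner acrosomal membrane protein (Spaca1), an inner nuclear membrane protein that anchors the acrosome (Dpy19l2) and an acrosomal matrix protein (Zpbp2).
Spaca1 (chr4:34050016-34050315, minus strand): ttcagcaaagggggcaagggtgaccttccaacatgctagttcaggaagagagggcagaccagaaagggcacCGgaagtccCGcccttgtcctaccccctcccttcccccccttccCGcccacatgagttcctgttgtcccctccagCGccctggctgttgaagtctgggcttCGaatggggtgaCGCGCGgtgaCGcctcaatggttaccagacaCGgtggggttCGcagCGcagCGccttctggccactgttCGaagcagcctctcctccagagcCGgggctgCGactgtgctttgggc
Dpy19l2 (chr9:24696244-24696543, minus strand): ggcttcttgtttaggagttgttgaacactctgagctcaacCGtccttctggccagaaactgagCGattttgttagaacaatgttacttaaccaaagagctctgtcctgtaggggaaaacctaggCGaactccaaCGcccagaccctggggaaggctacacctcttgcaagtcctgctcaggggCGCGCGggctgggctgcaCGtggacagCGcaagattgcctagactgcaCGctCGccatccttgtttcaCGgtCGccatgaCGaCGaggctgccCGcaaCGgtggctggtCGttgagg
Zpbp2 (chr11:98550847-98551146, plus strand): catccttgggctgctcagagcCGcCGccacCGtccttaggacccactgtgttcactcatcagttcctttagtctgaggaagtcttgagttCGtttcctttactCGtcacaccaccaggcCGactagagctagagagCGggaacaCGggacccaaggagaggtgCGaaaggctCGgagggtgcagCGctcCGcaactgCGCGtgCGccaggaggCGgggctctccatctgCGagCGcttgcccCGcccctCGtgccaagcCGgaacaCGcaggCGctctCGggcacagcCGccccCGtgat
The Spam1 promoter held 0 CpG, and those of Acrv1 and Zp3r held 1 each. The counts were 16 at Spaca1, 18 at Dpy19l2 and 26 at Zpbp2, with Zpbp at 7 and Izumo1 at 8 between them. CpG number did not order the genes whose peak was present in spermatogonia: Zpbp, open throughout, had fewer than Izumo1 and Spaca1, which were weaker in spermatogonia than in later cells. Among 17492 promoters of protein-coding genes, 12.4% held 0 or 1 CpG and 45.2% held 16 or more.

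Acr encodes acrosin, the trypsin-like protease of the acrosomal matrix. Its main peak (chr15:89568080-89568545) covers the lower annotated end of the gene and part of the lncRNA Gm36221. The later libraries had 46.2, 55.7, 51.0, 48.0 and 47.1 CPM there, in replicate order 1 to 5. The control KIT+ libraries had 1.5, 4.15 and 3.56 CPM, the control MCAM-Med libraries 0.459 and 0 CPM, and the control MCAM-high libraries 0, 1.73 and 0.526 CPM. All 17 spermatogonial libraries had at most 4.15 CPM, far under the lowest later library, and together held 40 counts of 26837102. In bulk libraries, more cells with an open site and a more open site per cell cannot be told apart. Later against KIT+ cells, the log2 fold change was 3.99 ± 0.43 (SE, edgeR adjusted p = 3.34e-11), and pooled counts over unscaled totals gave a 15.7-fold ratio (95% counting interval 8.91 to 30.7). Among spermatogonia the peak was filtered out and not tested. It entered the fit with later cells only through the later libraries. So did the second Acr peak and the start peaks of Spam1, Acrv1 and Zp3r. The p-values of these peaks therefore describe the difference and are no independent support for it. Control KIT+ cells held 12 counts at the Acr peak, control MCAM-Med cells 1 and control MCAM-high cells 5. Control KIT+ and MCAM-high libraries overlapped. The pooled ratio of KIT+ to MCAM-high was 3.76 in control cells (counting interval 1.23 to 13.6) and 1.11 in deleted cells (0.368 to 3.51). The pooled ratio of KIT+ to MCAM-Med was 10.7 in control cells (counting interval 1.58 to 457) and 1.43 in deleted cells (0.454 to 4.88), on 9 KIT+ and 6 MCAM-Med counts. The second Acr peak (chr15:89569484-89569684) had 9.09 to 17.7 CPM in later libraries and at most 1.87 CPM in spermatogonia (4.40 ± 0.85, log2, edgeR adjusted p = 1.89e-05, but 0.0695 with loess offsets).

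Spam1, the hyaluronidase also known as PH-20, followed the same course at its start peak (chr6:24791024-24791385). The later libraries had 18.4, 14.2, 16.2, 16.9 and 15.9 CPM. Of the 17 spermatogonial libraries 12 had no count there, and the highest, a deleted MCAM-high library, had 3.38 CPM. The 3 control KIT+ libraries had 0, 0 and 1.19 CPM. The pooled ratio of later to KIT+ cells was 31.9-fold on 2 KIT+ counts, with a counting interval of 8.69 to 266 (edgeR adjusted p = 4.91e-07). Against control MCAM-Med cells, which had no count, the signal was at least 18.9-fold higher, computed against 3 counts over that group.

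Acrv1 encodes SP-10, a protein of the acrosomal vesicle. Its start peak (chr9:36693037-36693352) also covers the start region of the lncRNA 1700027I24Rik, so the signal cannot be given to 1 of the pair. It had 28.5, 24.8, 25.1, 22.1 and 25.8 CPM in later libraries and 0, 2.08 and 0 CPM in control KIT+ libraries. Over all 17 spermatogonial libraries it had 16 counts, and 9 libraries had none. The ratio to KIT+ cells was 49.5-fold on 2 KIT+ counts (counting interval 13.5 to 411, edgeR adjusted p = 6.03e-09).

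Zp3r, known as sp56 in the mouse, is the fourth gene of this pattern (start peak chr1:130629485-130629808). The later libraries spread more here, at 21.9, 13.6, 20.7, 9.09 and 14.8 CPM, yet the lowest of them stood above all 17 spermatogonial libraries, whose highest value was 2.08 CPM. The control KIT+ libraries had 0, 2.08 and 0 CPM. The pooled ratio was 32.1-fold on 2 KIT+ counts (counting interval 8.75 to 268, edgeR adjusted p = 1.52e-06), and at least 19.1-fold against control MCAM-Med cells, which had none.

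Spaca1 and Izumo1 had a start peak with counts in every spermatogonial library, and it was stronger in later germ cells. Spaca1, needed for the shape of the acrosome in the mouse, had 59.4, 59.5, 84.2, 98.0 and 85.5 CPM in later libraries at chr4:34049703-34050381. The control KIT+ libraries had 13.5, 14.5 and 22.5 CPM, the MCAM-Med libraries 29.4 and 23.9 CPM and the MCAM-high libraries 23.1, 27.2 and 31.5 CPM. No spermatogonial library reached the lowest later one. The log2 fold change was 2.14 ± 0.28 against KIT+ cells (edgeR adjusted p = 3.79e-09), 1.53 ± 0.29 against MCAM-Med (1.62e-05) and 1.5 ± 0.25 against MCAM-high cells (6.16e-07). The first 2 later libraries lay below the other 3 at this peak.

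Izumo1 encodes the sperm membrane protein that binds its receptor on the egg and becomes exposed after the acrosome reaction. At its start peak (chr7:45621512-45621957) the later libraries had 35.8, 18.6, 16.99, 18.8 and 21.4 CPM. The control KIT+ libraries had 11.2, 4.15 and 6.52 CPM, and the highest of all spermatogonial libraries had 16.3 CPM, just under the lowest later one. The difference was 1.57 ± 0.40 on the log2 scale against KIT+ cells (edgeR adjusted p = 0.000858), 1.04 ± 0.41 against MCAM-Med (0.0292) and 0.86 ± 0.34 against MCAM-high cells (0.0286). The calls against both KIT- populations were lost without later replicate 1 (edgeR adjusted p = 0.119 and 0.151) and with scaling to total counts (0.0841 and 0.104). They were also lost without MCAM-Med replicate 2 (0.362), MCAM-high replicate 1 (0.0829) or MCAM-high replicate 3 (0.082).

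The 3 remaining genes were open in every spermatogonial library, and their later and spermatogonial values overlapped. Zpbp and Zpbp2 encode related acrosomal matrix proteins that bind the zona pellucida, and Dpy19l2 is required to attach the acrosome to the nucleus. At the Zpbp start (chr11:11461631-11462645) the later libraries had 57.6, 50.2, 42.1, 56.5 and 42.7 CPM and the control KIT+ libraries 38.9, 39.4 and 33.8 CPM. The difference was 0.40 ± 0.24 (log2, edgeR adjusted p = 0.163) and did not pass, with a 95% interval of -0.08 to 0.87. With DESeq2 it did (0.59, adjusted p = 0.0185). Against MCAM-high cells, at 33.2, 31.1 and 34.7 CPM, the Zpbp difference passed (0.59 ± 0.23, edgeR adjusted p = 0.0251), but not with scaling to total counts (0.119) and not without any single MCAM-high library (0.0522 to 0.0903). At the Dpy19l2 start (chr9:24695754-24696797) the later libraries had 36.5, 52.6, 37.7, 35.0 and 38.9 CPM, against 59.1, 40.5 and 43.9 CPM in control KIT+ libraries. The difference of -0.28 ± 0.24 (edgeR adjusted p = 0.326, interval -0.75 to 0.18) did not pass.

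Zpbp2 was the only start peak of the 9 called lower in later germ cells. In the spermatogonial steps only 5 start peaks were tested, without those of Acr, Acrv1, Spam1 and Zp3r. Of these 5, only Zpbp2 was called. At chr11:98550657-98551652 the later libraries had 48.3, 32.8, 24.4, 24.7 and 30.7 CPM. The control KIT+ libraries had 50.2, 41.5 and 69.9 CPM, the MCAM-Med libraries 32.1 and 22.9 CPM and the MCAM-high libraries 38.4, 43.2 and 17.9 CPM. In deleted cells the KIT+ libraries had 59.7, 66.7 and 58.1 CPM, the MCAM-Med libraries 42.9, 43.0 and 41.8 CPM and the MCAM-high libraries 32.1, 27.6 and 39.5 CPM. Among spermatogonia, KIT+ cells were highest on average in both genotypes. The KIT+ minus MCAM-Med difference was 0.99 ± 0.31 in control cells (log2, edgeR adjusted p = 0.033) and 0.50 ± 0.27 in deleted cells (0.283). The KIT+ minus MCAM-high difference was 0.71 ± 0.27 in control (0.0598) and 0.88 ± 0.28 in deleted cells (0.0263). Later minus KIT+ was -0.76 ± 0.26 (edgeR adjusted p = 0.0127), while later cells did not differ detectably from MCAM-Med (0.25 ± 0.31, 0.521) or MCAM-high cells (-0.04 ± 0.26, 0.904). Each of the 3 calls was lost under another scaling: the control step at 0.0656 and the deleted step at 0.0855 with total counts, and the later difference at 0.0641 with DESeq2 size factors. Without control KIT+ replicate 3 the later difference (edgeR adjusted p = 0.102) and the control step (0.167) did not pass. The control step was also lost without MCAM-Med replicate 1 (0.128) or 2 (0.256), and the deleted step without MCAM-high replicate 1 (0.0725) or 2 (0.136) or KIT+ replicate 1 (0.0664) or 2 (0.0665).

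**Figure D1:**
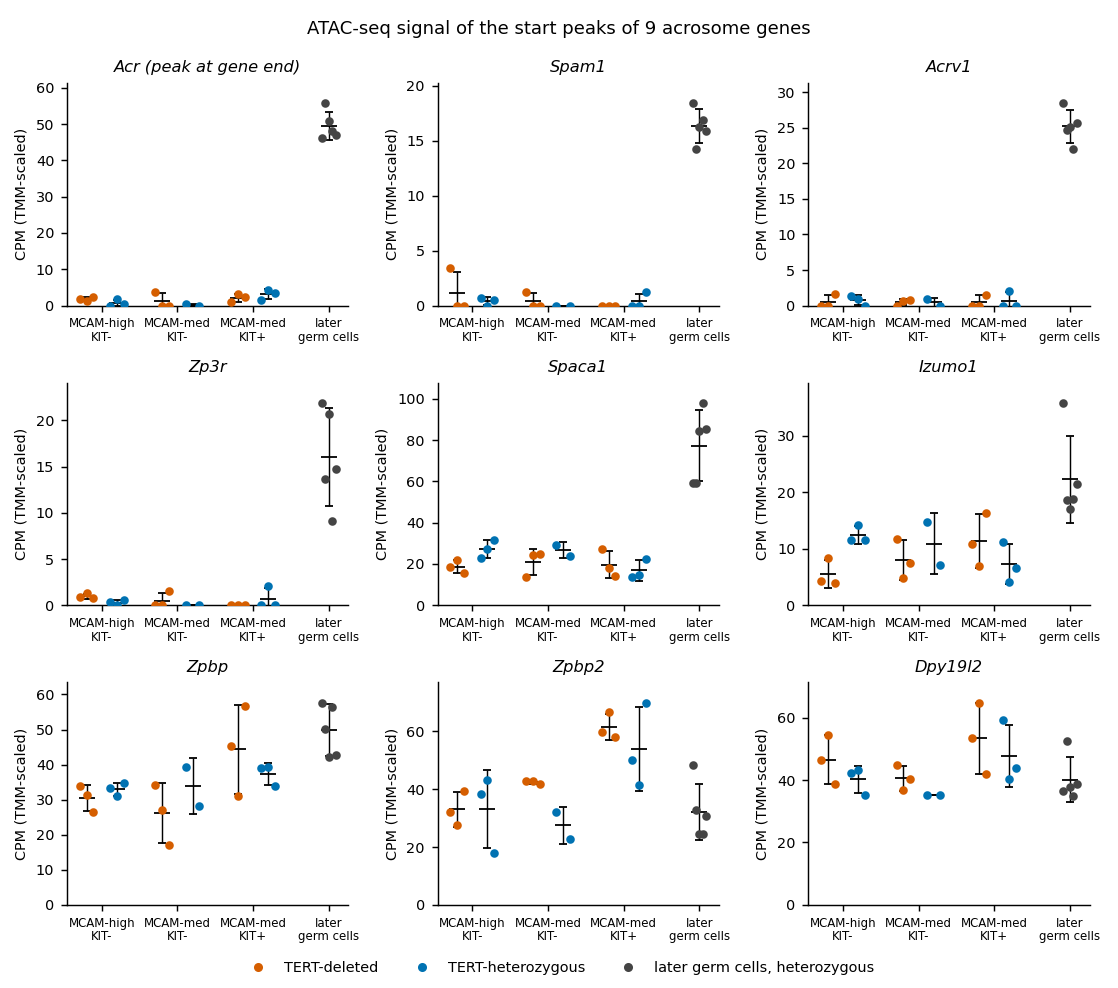
TMM-scaled CPM (y axes, each from 0) of the start peak of each gene in every library, by population along the x axis. Points are libraries, and bars are the group mean ± SD. Acr, Spam1, Acrv1 and Zp3r have at most 4.15 CPM in all 17 spermatogonial libraries and between 9.09 and 55.7 CPM in the 5 later ones, whereas Zpbp, Zpbp2 and Dpy19l2 are present throughout.

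Signals of different genes were compared per kb of peak, by rank among 14692 start peaks. The Acr peak stood at percentile 5.27 in control MCAM-high cells, 12.2 in KIT+ cells and 98.3 in later cells. Acrv1 stood at 6.68, 3.49 and 93.2 in the same order, Zp3r at 3.34, 3.38 and 73.4, and Spam1 at 3.97, 1.65 and 68.8. These 4 thus ranked among the weakest start peaks of spermatogonia and above the median in later cells. Spaca1 stood at 76.5, 48.8 and 98.9, and Izumo1 at 58.7, 31.8 and 73.8. The start peaks present throughout moved least, with Zpbp at 66.8, 65.6 and 72.8, Dpy19l2 at 74.6, 73.8 and 61.4, and Zpbp2 at 67.9, 79.3 and 53.9.

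Of the 25 peaks, 19 passed the filter on low counts in the 13 heterozygous libraries, at least 1 for every gene. In later against KIT+ cells 11 were called higher, 2 lower and 6 not called, with a median log2 fold change of 1.87. Over all 73134 peaks tested, 52.0% were called, 29.2% higher and 22.8% lower, and the median was 0.12. Of the 9 start peaks 6 were called higher and 1 lower, beside 24.1% and 28.4% of 14012 tested start peaks. Against MCAM-Med cells 12 were called higher and 1 lower, where 52.0% of all peaks were called, 30.8% higher and 21.2% lower. That split over all peaks, 22545 higher and 15511 lower, was 15100 and 16429 with loess offsets and 27434 and 12141 with DESeq2. Against MCAM-high cells 13 were called higher and 2 lower, where 58.4% of all peaks were called, 33.5% higher and 24.9% lower (24486 and 18208 peaks, or 30587 and 14445 with DESeq2). These 3 comparisons share the later libraries. Without a test, all 5 later libraries stood above all 17 spermatogonial ones at 10 of the 25 peaks, as at 16.3% of all peaks, and at 6 of the 9 start peaks, as at 16.2% of all start peaks. Because a peak could pass the filter through the later libraries alone, these counts describe the peaks and do not test them.

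**Figure D2:**
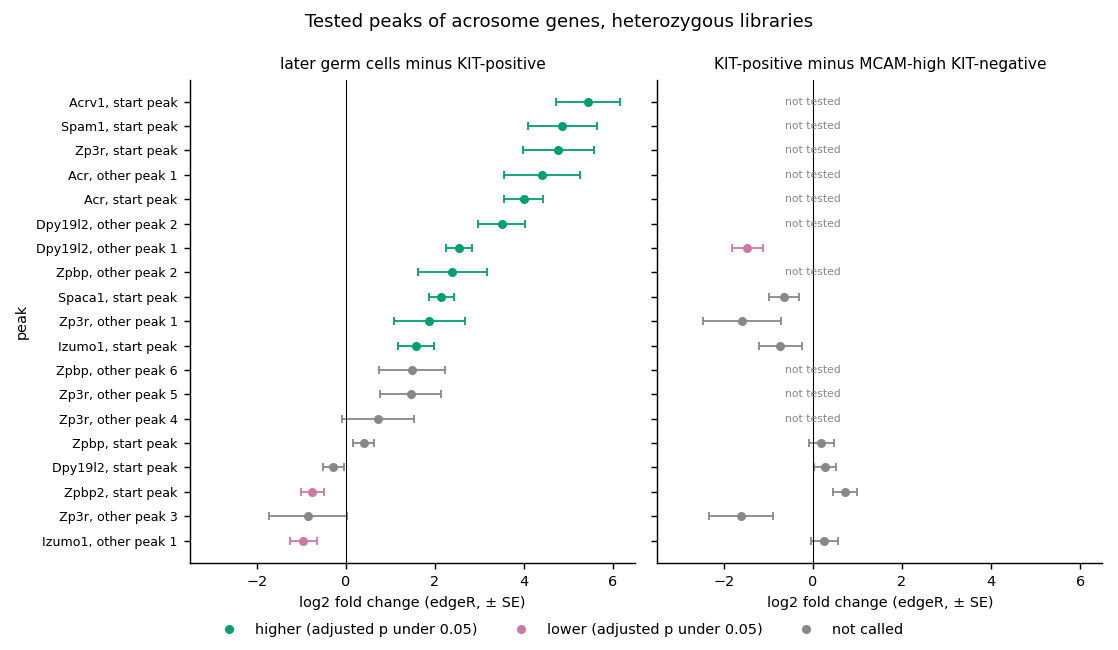
Log2 fold change ± SE (edgeR, x axes) of the 19 peaks tested in later germ cells minus KIT+ spermatogonia (left), and of those also tested in KIT+ minus MCAM-high spermatogonia (right), in heterozygous cells. On the left 11 peaks are called higher and 2 lower, and on the right the only call is the Dpy19l2 peak over Cypt4, which is lower.

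In later cells, peaks away from the starts had less signal per peak on average than the start peak of their gene, except for the peak over Cypt4 within Dpy19l2. In spermatogonia the order was the other way for peaks of Zp3r and Izumo1. Group means of the Zp3r peak at chr1:130545792-130546133 ran from 1.78 CPM (control KIT+) to 15.02 CPM (deleted MCAM-Med), against 0.692 and 0.497 CPM at the start. The second Izumo1 peak averaged 21.8 CPM in control MCAM-Med cells, its lowest spermatogonial group, against 10.9 CPM at the start. The 7 other Zpbp peaks had at most 5.99 CPM in any spermatogonial library and at most 12.6 CPM in later ones. They were filtered out among spermatogonia, so p-values of those tested with later cells only describe the difference. Of these, the peak at chr11:11342914-11343255 was called higher in later than in KIT+ cells (2.39 ± 0.78, log2, edgeR adjusted p = 0.00856), but its sign turned with loess offsets (-0.030). The one at chr11:11400671-11401134 was called higher against MCAM-Med (2.24 ± 0.87, edgeR adjusted p = 0.0262) and MCAM-high cells (2.25 ± 0.73, 0.00661), and neither passed with loess offsets (0.221 and 0.12) or with the later libraries summed (0.236 and 0.162). The first was also lost without MCAM-Med replicate 2 (0.213) or later replicate 3 (0.0901). At Zp3r, 3 of the 5 other peaks also lie in the lncRNA Gm16083, and all 5 had at most 15.2 CPM in every library. One of these 3 (chr1:130549308-130549543) was lower in later cells, at 0 to 2.22 CPM, than in control MCAM-high cells, at 8.39, 3.45 and 6.83 CPM (-2.47 ± 0.70, log2, edgeR adjusted p = 0.00206), but not with the later libraries summed to 1 (0.0822). The peak at chr1:130597668-130598013, outside Gm16083, was filtered out among spermatogonia and had 3.72 to 11.7 CPM in later libraries. It was called higher than in MCAM-high cells, at 0.699, 0.863 and 1.05 CPM (3.10 ± 0.75, log2, edgeR adjusted p = 0.000346). With loess offsets that call was lost (1.18, log2, edgeR adjusted p = 0.2). With the later libraries summed to 1 the log2 fold change was 3.16, but a fit with 1 later sample does not show that the call holds. Against MCAM-Med cells, which had no count there (edgeR adjusted p = 7.02e-05), the signal was at least 8.79-fold higher. The peak at chr1:130545792-130546133 had 1.81, 0.623 and 4.65 CPM in deleted KIT+ libraries, against 14.9, 15.2 and 14.9 CPM in deleted MCAM-Med libraries (-2.70 ± 0.79, log2, edgeR adjusted p = 0.0259). That call was lost without deleted KIT+ replicate 1 or 2 or any 1 of the 3 deleted MCAM-Med libraries, at edgeR adjusted p of 0.0676 to 0.147. The same peak was called higher in later than in control KIT+ cells (1.87 ± 0.80, edgeR adjusted p = 0.0452). This was lost without control KIT+ replicate 1 or 3 or later replicate 1, 2 or 5 (0.0569 to 0.226). Scaling to total counts (edgeR adjusted p = 0.0561), loess offsets (0.0624) and DESeq2 (adjusted p = 0.0624) lost it as well. The second Izumo1 peak (chr7:45628563-45629253) lies inside the neighbouring gene Rasip1. It was lower in later than in KIT+ cells, at 11.8 to 23.0 CPM against 21.7 to 48.0 CPM (-0.95 ± 0.30, edgeR adjusted p = 0.00641), and did not pass without control KIT+ replicate 3 (0.186).

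Dpy19l2 contains another gene, Cypt4, whose name stands for a cysteine-rich protein of the perinuclear theca, the layer between acrosome and nucleus. A peak over Cypt4 (chr9:24624882-24625912) lies 70896 bp downstream of the Dpy19l2 start, and a second (chr9:24626039-24626629) lies within 1 kb of the Cypt4 start. The first had 77.8, 67.5, 101, 82.4 and 62.5 CPM in later libraries. It had 19.5, 12.4 and 8.29 CPM in control KIT+, 39.4 and 32.6 CPM in MCAM-Med and 39.8, 45.8 and 25.8 CPM in MCAM-high libraries, so KIT+ cells were lowest and later cells highest, with no overlap of KIT+ and either KIT- population. KIT+ minus MCAM-high was -1.48 ± 0.35 in control cells (log2, edgeR adjusted p = 0.00218) and -0.93 ± 0.35 in deleted cells (0.0685). KIT+ minus MCAM-Med was -1.43 ± 0.38 in control (0.011) and -1.13 ± 0.35 in deleted cells (0.037). Later minus KIT+ was 2.53 ± 0.29 (1.93e-10), and later minus MCAM-high 1.06 ± 0.24 (0.000155). The second peak had 24.0 to 37.8 CPM in later libraries, and its highest spermatogonial value was 5.43 CPM. It rose by 3.50 ± 0.53 (log2) over KIT+ cells (edgeR adjusted p = 1.6e-07). This second peak was filtered out among spermatogonia, so its p-value describes the difference and is no independent support for it. The Dpy19l2 start peak itself differed from both Cypt4 peaks in having no call in any of the 13 comparisons. Without control MCAM-Med replicate 1 or KIT+ replicate 3 the control KIT+ minus MCAM-Med step did not pass (0.0812 and 0.0979), and the deleted one was lost without MCAM-Med replicate 1 or 3 or KIT+ replicate 2 or 3 (0.085 to 0.274).

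**Figure D3:**
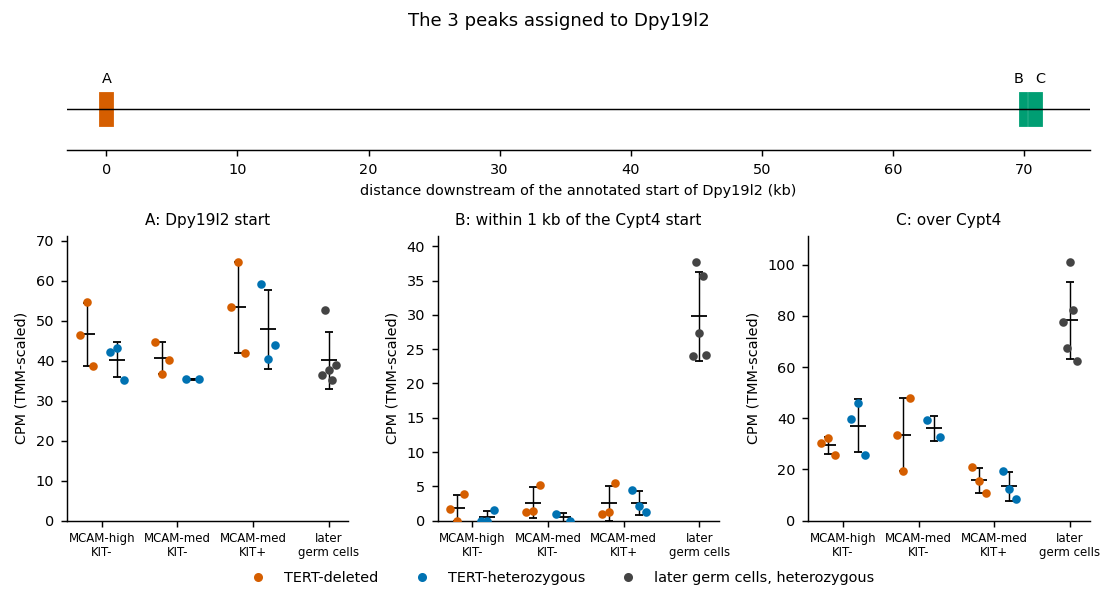
Position of the 3 peaks assigned to Dpy19l2 as distance from its start (top, kb), and their TMM-scaled CPM in every library by population (bottom, axes from 0; bars are mean ± SD). The start peak (A) is level, the peak near the Cypt4 start (B) is at most 5.43 CPM in spermatogonia and 24.0 to 37.8 CPM in later cells, and the peak over Cypt4 (C) is lowest in KIT+ cells.

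Between the sorted spermatogonia, 10 of the 25 peaks, of 6 genes, passed the filter in the fit of 17 libraries. The other 15, with all of Acr, Acrv1 and Spam1, were not tested there. Among control cells 1 of the 10 was called from MCAM-high to KIT+ cells (15.8% of all peaks called), 2 from MCAM-Med to KIT+ (9.32%) and 0 from MCAM-high to MCAM-Med (0.0%; 0 at an unadjusted p under 0.05, and 0 with DESeq2). Among deleted cells the counts were 1 (13.7%), 2 (6.87%) and 0 (0.014%; 1 at an unadjusted p under 0.05, and 0 with DESeq2). With 10 peaks these counts do not set the acrosome genes apart from all peaks. The calls are the Zpbp2, Cypt4 and Zp3r ones given above. With scaling to total counts or loess offsets, the 1 call in deleted KIT+ against MCAM-high cells was a lower peak in place of a higher one. Scaling to total counts also moved the median log2 fold change of all peaks from -0.05 to -0.22 in the control KIT+ minus MCAM-high step.

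TERT deletion changed none of the 10 peaks past the threshold. In deleted minus control cells edgeR called 0 in MCAM-high (0.0489% of all peaks called), 0 in MCAM-Med (0.00873%) and 0 in KIT+ cells (0.00349%), and DESeq2 called 0 as well. At an unadjusted p under 0.05 there were 1, 1 and 0. The largest of these was Izumo1, with 4.22, 8.35 and 3.88 CPM in deleted MCAM-high libraries and 11.5, 14.2 and 11.6 CPM in control ones. It was not called (-1.15 ± 0.50, log2, edgeR adjusted p = 0.774). In KIT+ cells its order was the other way, at 10.8, 6.85 and 16.3 CPM in deleted and 11.2, 4.15 and 6.52 CPM in control libraries. The difference of the KIT+ minus MCAM-high step between deleted and control cells was 1.72 ± 0.72 for Izumo1 (edgeR adjusted p = 0.958), and 0 of 10 peaks passed (0.0% of all peaks; 1 at an unadjusted p under 0.05, and 0 with DESeq2). The intervals were wide: for Spaca1 in MCAM-high cells the deletion effect lay between -1.18 and 0.11 on the log2 scale.

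The later libraries were also read under both of their names, with no test. Spaca1 had 84.2, 98.0 and 85.5 CPM in the 3 libraries titled round spermatid and 59.4 and 59.5 CPM in the 2 titled spermatocyte. By library name the 3 round spermatid values were 59.4, 59.5 and 84.2 CPM and the 2 spermatocyte values 98.0 and 85.5 CPM, so the order of the names reversed. The single library whose names agree, round spermatid in both, had 51.0 CPM at Acr, 25.1 at Acrv1, 16.2 at Spam1 and 20.7 at Zp3r. Fitted alone against KIT+ cells, that library gave a log2 fold change of 5.01 at the Spam1 start and 1.26 at the Izumo1 start. Neither was called in that fit. Whether these peaks open in spermatocytes or only in spermatids cannot be told apart here.

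CpG content of the promoter was compared with signal over all protein-coding genes, as a description. Of 2169 promoters with 0 or 1 CpG, the class of Spam1, Acrv1 and Zp3r, 13% had a start peak, against 98.7% of the 7913 promoters with 16 or more, the class of Spaca1, Dpy19l2 and Zpbp2. The 281 start peaks of the low class had a median of 31.9 CPM per kb in later cells, 4.78 in control KIT+ and 3.79 in control MCAM-high cells. Of those tested, 64.3% were called higher and 7.38% lower in later than in KIT+ cells. In the class with 16 or more CpG, 15.5% were called higher and 33.1% lower. Within that class Spaca1 was called higher, Zpbp2 lower, and Dpy19l2 was not called. Spam1, Acrv1 and Zp3r were called higher, as were most tested start peaks with 0 or 1 CpG.

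**Figure D4:**
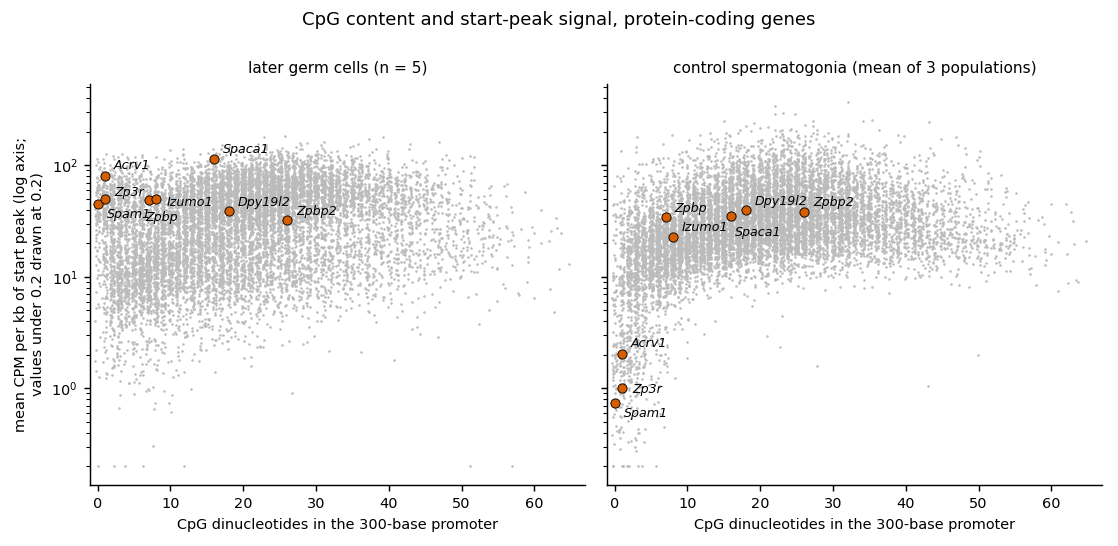
Mean CPM per kb of start peak (log y axes) against the number of CpG in the 300-base promoter for protein-coding genes (grey) and 8 acrosome genes (orange), in later germ cells (left) and control spermatogonia (right). Spam1, Acrv1 and Zp3r, with 0 or 1 CpG, lie at the bottom of the spermatogonial panel and within the main cloud in later cells.

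Short motifs were searched on both strands of the 8 promoters, where a match is a description and not a site. The full cAMP response element TGACGTCA, the element bound by the spermatid activator CREM, was found in Izumo1, 96 bp before the start, and in 1.88% of all 27025 promoters. Its shorter part TGACG, which also occurs inside the full element, was found in Spaca1, Zpbp2, Izumo1 and Dpy19l2, and in 21.0% of all promoters. The letters AACTG of the MYB core were found in 5 of 8 (44.8% of all), GTTGCC of the RFX motif in Zp3r (12.7%) and TATAAA in none (14.2%).

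A list of 42 other acrosome and sperm-egg interaction genes was read at their start peaks. Of these, 32 had one and were tested, in 31 distinct peaks since Dcst1 and Dcst2 share 1. In later against KIT+ cells 27 genes were called higher and 2 lower, with a median log2 fold change of 1.87, beside 24.1% and 28.4% of all tested start peaks and their median of -0.11. Only 19 of the 32 genes passed the filter among spermatogonia, and the others could enter the fit through the later libraries alone. These counts, and the p-values of such genes, describe the difference and are no independent support for it. The 3 lowest adjusted p were those of Llcfc1, a factor of sperm-egg fusion, Actl7b, a testis actin-related protein, and Spaca4, a zona-binding membrane protein in the mouse. Llcfc1 had 43.3 ± 5.9 CPM in later libraries (SD, n = 5) and 2.13 ± 2.72 CPM in KIT+ libraries (n = 3), a log2 fold change of 4.51 ± 0.51 (edgeR adjusted p = 1.15e-10). Actl7b had 127 ± 8.86 CPM in later and 34.0 ± 3.59 CPM in KIT+ libraries (1.88 ± 0.23, 8.39e-10). Spaca4 had 35.0 ± 6.97 CPM in later and 3.12 ± 2.01 CPM in KIT+ libraries (3.58 ± 0.49, 1.75e-08). Acrbp, the chaperone of proacrosin, was already open and rose by 1.59 ± 0.30 (1.24e-05). Hyal5, a second sperm hyaluronidase, resembled Spam1, with 13.9 ± 2.61 CPM in later libraries, 0 promoter CpG and at most 3.10 CPM in any spermatogonial library (edgeR adjusted p = 2.43e-05). The 2 genes called lower were Lyzl4, a lysozyme-like gene, at 12.2 ± 2.32 CPM in later and 44.4 ± 9.0 CPM in KIT+ libraries (-1.87 ± 0.26, 3.45e-08), and Gopc, a Golgi protein needed for acrosome assembly (-0.51 ± 0.21, 0.0411). The remaining 3, named after their values were seen, were Csnk2a2, Vps54 and Gba2, which were not called.

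In 12 of the 32 genes no spermatogonial library reached 10 CPM, a level chosen after the values were seen. Their promoters held 0 to 9 CpG with a median of 2.5, and those of the other 20 genes a median of 18.5. Within spermatogonia 19 genes of the list were tested. From control MCAM-high to KIT+ cells Pick1 (1.3 ± 0.36, log2, edgeR adjusted p = 0.00975), Csnk2a2 (1.44 ± 0.40, 0.00947) and Ccdc62 (0.86 ± 0.29, 0.0357) were called higher and Spata16 lower (-2.24 ± 0.70, 0.0234), beside 9.64% and 6.11% of all peaks. Over all peaks this step had 5522 calls higher and 3502 lower, or 4067 and 5005 with scaling to total counts. In the same step of deleted cells none of these 4 passed (edgeR adjusted p = 0.158 for Pick1, 0.0778 for Csnk2a2, 0.0942 for Ccdc62 and 0.158 for Spata16), while Stx2 was called higher (1.01 ± 0.34, 0.0359) and Crisp2 lower (-1.72 ± 0.57, 0.0347). Whether these steps differ between deleted and control cells was tested as an interaction, and 0 of the 19 genes passed (0 at an unadjusted p under 0.05, and 0 with DESeq2). Against MCAM-Med cells only Pick1 passed in control (1.49 ± 0.42, 0.0187) and only Gopc in deleted KIT+ cells (0.83 ± 0.23, 0.0195). Pick1 and Csnk2a2 take part in acrosome biogenesis in the mouse. Between deleted and control cells edgeR called 0 genes of the list in MCAM-high, MCAM-Med and KIT+ cells, where 1, 1 and 2 had an unadjusted p under 0.05, and DESeq2 called 0 in each.

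**Figure D5:**
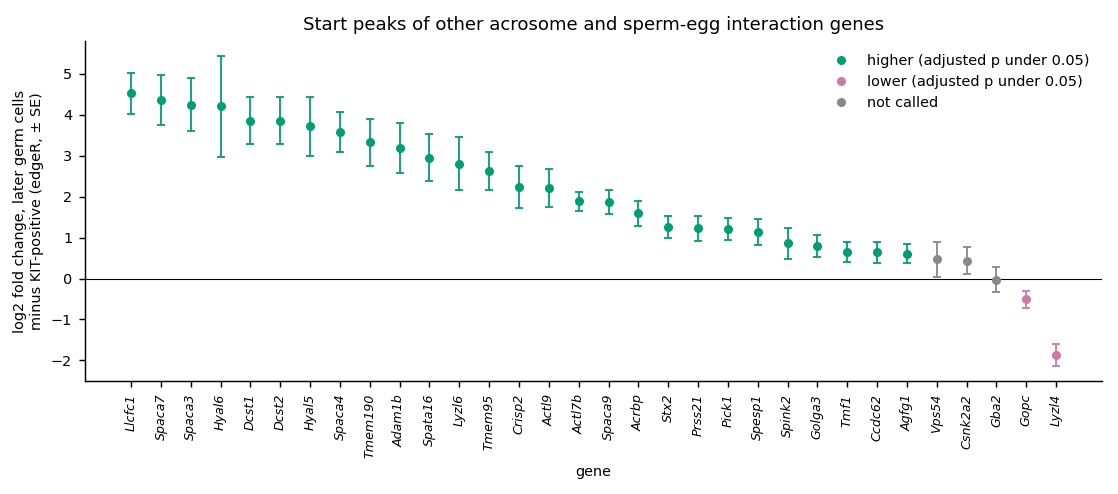
Log2 fold change ± SE (edgeR, y axis) of the start peaks of 32 other acrosome and sperm-egg interaction genes, in later germ cells minus control KIT+ spermatogonia. The 27 genes called higher range from Llcfc1 at 4.51 to Agfg1 at 0.61, and Gopc and Lyzl4 are lower.

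Start peaks with the most similar course over the 22 libraries were ranked by Pearson correlation of log2(CPM + 1) with the mean standardised profile of the 9 start peaks, over 16668 genes. All libraries share depth and composition differences, so the values are descriptive. The lncRNA D030028A08Rik came first (r = 0.978), followed by Pip5k1a, a phosphoinositide kinase (0.95), Rbl2, a retinoblastoma family member (0.95), and the lncRNAs Gm41204 (0.949) and 4930565N06Rik (0.948). D030028A08Rik had at least 71.8 CPM in later libraries and at most 32.2 CPM in spermatogonia, and for Gm41204 these values were 8.22 and 2.33 CPM.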

How the data were processed

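ATAC-seq peak counts for 22 libraries were analysed as deposited: 1 table of whole-number counts for 96049 peaks, with no normalization by the authors, and per the submitters' processing notes made with FastQC, Bowtie2, SAMtools and Picard, which also name the builds mm10, GRCm38 and hg19 without a role. The peak caller, the counting tool, any Tn5 offset and any duplicate filter are not given in the sources used here. Groups came from the sample labels. Peaks (median width 417 bp) were assigned to RefSeq genes (GRCm38.p6 gene table, all 9 symbols matched) by overlap with the gene body or 2 kb flanks. The start peak of a gene overlaps its annotated start or is nearest to it within 1 kb. For Acr, which has no start in the promoter table, it is the peak at the lower gene end. Exons, introns and UTRs were not annotated. Peak starts are given as deposited, whether counted from 0 or 1 not being stated.

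Counts were tested with edgeR 4.0.16 (R 4.3.3; TMM, filterByExpr, quasi-likelihood F test, Benjamini-Hochberg adjustment over all peaks tested, threshold 0.05), in 1 fit of the 17 spermatogonial libraries (57289 peaks, 11 residual degrees of freedom) and 1 of the 13 heterozygous libraries (73134 peaks, 9), for 13 comparisons. Fits were tested on simulated data. Sums, intervals and figures used pandas 2.3.3, SciPy 1.17.1 and matplotlib 3.10.9. DESeq2 1.42.0, other scalings, no filter, gene bodies only or 10 kb flanks, the 2 groups alone, a replicate block, summed later libraries and leaving out each library were the alternatives. Counting intervals are exact, at 95%, and cover counting error only, with each count taken as independent. Even numbers made up 48.8 to 73.9% of the non-zero counts in spermatogonial libraries and 49.26 to 49.85% in later ones. Control KIT+ replicates 2 and 3 stood at 62.5 and 73.9%. The 2 KIT+ counts at the Spam1 start lay in replicate 3, and those at the Acrv1 and Zp3r starts in replicate 2. With so many even numbers, counts of these libraries cannot be taken as independent, and intervals resting on them are likely too narrow. Independence itself was not tested. All peaks of the 9 genes are described. Other genes are named where they passed or by lowest adjusted p, and genes of similar course by correlation of log2(CPM + 1). The members and lists were chosen with earlier results of these data known. Replicate numbers were not taken to pair libraries: same-numbered deviations correlated at -0.42 to 0.09, none above 0.1.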

Additional observations from a re-analysis of the deposited data

Results flagged for a closer look

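At the Izumo1 start peak, replicate 1 of the later germ cells had 35.8 CPM, and the next highest of the 5 later libraries had 21.4 CPM. The gap was 0.767 of the range, above the critical value of 0.71. Without that library the later germ cells no longer passed against MCAM-Med or MCAM-high spermatogonia, but still did against KIT+ cells.

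At the Dpy19l2 start peak, replicate 2 of the later germ cells had 52.6 CPM, and the next highest had 38.9 CPM, a gap of 0.781 of the range. The highest and lowest later libraries were examined at 19 peaks, and about 1 in 20 such groups stands out by chance.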

How the results depend on the processing

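Of 791 alternative values for 49 fold changes of single peaks, 688 kept their direction and side of the threshold, 99 lost the call, 3 gained it and 1 turned: the Zpbp peak at chr11:11342914-11343255 in later against KIT+ cells, at -0.030 (edgeR adjusted p = 0.981) with loess offsets. The 3 that gained it are the Zpbp start peak in that comparison (0.60 with DESeq2 size factors, 0.53 with loess offsets, 0.59 with DESeq2). Loess offsets, and the fit with only the later library whose names agree, were chosen after seeing the data. Of 63 group means, 4 moved by more than 1 SD, all with scaling to total counts. For later germ cells the number of acrosome gene peaks called, 13 against KIT+, 13 against MCAM-Med and 15 against MCAM-high cells, was 6, 8 and 9 with only that library, and 9 against MCAM-high cells with the later libraries summed to 1. Over all peaks the counts of 38026, 38056 and 42694 were 16797, 18883 and 23776 when summed and 11597, 12695 and 16865 with only that library; both fits use 1 later sample, assumed to vary like the spermatogonia.

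Between control KIT+ and MCAM-Med cells the 2 acrosome gene calls were 1 with scaling to total counts, loess offsets, no filter or only the 2 groups. Leaving out single libraries gave 0 to 2, and 1579 to 5921 over all peaks (5342 in the fit of 17 libraries, 2805 with only the 2 groups). Replicate numbers are shared by label only. With the replicate block the acrosome gene calls were 0 in this comparison (2172 over all peaks) and 0 between deleted KIT+ and MCAM-Med cells, and 1 peak of all was called between deleted MCAM-Med and MCAM-high cells. Between control KIT+ and MCAM-high cells leaving out single libraries gave 1 to 2 acrosome gene calls (2 without MCAM-high replicate 2) and 5054 to 9104 over all peaks (9024 with all). Between deleted KIT+ and MCAM-high cells the 1 call was 2 with only the 2 groups and 0 to 1 without single libraries, with 4878 to 6432 over all peaks (7874 with all). Between deleted KIT+ and MCAM-Med cells the 2 calls were 1 for gene bodies only and 0 to 1 without single libraries, with 2144 to 2848 over all peaks (3934 with all). Between deleted MCAM-Med and MCAM-high cells the 8 peaks called over all were 5 with total counts, 407 with no filter, 505 with only the 2 groups (1 of them an acrosome gene peak), 4 with DESeq2 and 0 to 4 without single libraries.

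For TERT deletion the peaks called over all were 28 in MCAM-high (101 with no filter, 13 to 27 without single libraries), 5 in MCAM-Med (3 with loess offsets, 18 with no filter, 12 with only the 2 groups, 3 with DESeq2, 0 to 7 without single libraries) and 2 in KIT+ cells (8 with no filter, 1 with only the 2 groups, 1 with DESeq2, 0 to 2 without single libraries). The causes were not tested. Depth limits the 4 peaks near 0 in spermatogonia, where single libraries held 0 to 6 counts: Acr, Spam1, Acrv1 and the Zp3r start were filtered out of the fit of spermatogonia, and differences among spermatogonia were not tested there.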
